A study of Mus musculus with 8 samples.

Results

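Cell cycle and proliferation genes were examined in cardiac fibroblasts of the mouse. The members were 44 genes picked by name for their known roles, and all 44 were found among the 54532 genes of the deposited expression table. They comprised 10 genes of G1 entry, 11 genes of S phase and 23 mitotic genes. The fibroblasts had been sorted by flow cytometry for the surface receptor PDGFRα from infarcts taken 7 days after a coronary artery was occluded. Libraries of poly(A) RNA came from 4 samples labelled FTbR2KO, in which the TGF-β type 2 receptor (gene Tgfbr2) was to be lost from fibroblasts, and from 4 TbR2fl/fl controls with the floxed gene. Mice of both groups had received tamoxifen, and the cells were not cultured. The promoter driving the recombinase, and the strain, age and sex of the mice, are not given in the sources used here. Libraries are named by the numbers in their titles, FTbR2KO 1 to 4 and TbR2fl/fl 5 to 8. Whether the samples are separate animals or pools is not stated, so a p-value reflects spread among samples, which may be partly technical.

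Depth, recovered from the deposited values, was 16.1 to 22.9 M reads in the libraries labelled FTbR2KO and 21.2 to 28.7 M in the controls. Tgfbr2 measured 56.9 to 60.0 FPKM in the libraries labelled FTbR2KO and 40.3 to 49.6 FPKM in the controls. Its whole-gene level thus went against the label, but a whole-gene level cannot show the loss of an exon. Every direction is therefore given for the libraries as labelled. FPKM counts fragments per kilobase of a gene, corrected for library depth. The fibroblast markers summed to 8958 to 10951 FPKM under the FTbR2KO label and 9704 to 14049 FPKM in the controls, and Pdgfra itself was between 45.5 and 85.6 FPKM in all 8 libraries. Ddx3y, a gene of the Y chromosome, measured 15.6 FPKM in FTbR2KO 4 and 14.2 FPKM in TbR2fl/fl 8, and at most 0.0470 FPKM in the other 6 libraries.

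A cell that leaves rest first makes D-type cyclins, which with the kinases Cdk4 and Cdk6 inactivate the retinoblastoma protein and free E2F factors. E2F factors turn on the genes of DNA replication, and the later wave of mitotic genes is driven by B-Myb and FoxM1 together with the MuvB complex. In resting cells MuvB joins a pocket protein and an E2F repressor in the DREAM complex, which holds the same genes silent. Fibroblasts of the heart are mostly at rest. After infarction they proliferate during the early days of repair and then withdraw from the cycle as the scar matures.

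All 44 members were detected in every library, with 465 reads (Ccne1) to 17750 reads (Cdk4) per gene over the 8 libraries. Compared per length as FPKM, the G1 kinase gene Cdk4 and the replication clamp gene Pcna stood highest. Cdk4 had a mean of 27.8 FPKM in the libraries labelled FTbR2KO and 30.8 FPKM in the controls, whereas the corresponding means of Cdk1 were 2.23 and 2.05 FPKM. Summed FPKM in the libraries labelled FTbR2KO was 57.2 to 77.9 for the 10 genes of G1 entry, 42.7 to 71.6 for the 11 S phase genes and 29.1 to 71.4 for the 23 mitotic genes. In the controls the corresponding sums were 58.9 to 86.3, 40.6 to 71.7 and 27.1 to 61.7 FPKM. These are bulk samples, so fewer cycling cells and less of these transcripts per cell cannot be told apart.

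The main feature of the mitotic genes was a difference between libraries of the same genotype. Mki67, whose protein Ki-67 coats mitotic chromosomes and marks cycling cells, measured 1.74, 5.63, 2.29 and 3.62 FPKM in FTbR2KO 1 to 4 and 1.39, 2.93, 1.44 and 3.57 FPKM in TbR2fl/fl 5 to 8. FTbR2KO 2 and 4 were high and 1 and 3 low, controls 6 and 8 were high and 5 and 7 low, and the genotypes overlapped. Top2a, the topoisomerase that untangles sister chromosomes, measured 1.53, 5.68, 1.76 and 3.81 FPKM in FTbR2KO 1 to 4 and 1.11, 3.36, 1.27 and 3.29 FPKM in the controls, in the same order. The microtubule bundler Prc1, which builds the midzone of the anaphase spindle, measured 0.749, 2.45, 0.954 and 1.50 FPKM against 0.700, 1.23, 0.725 and 1.29 FPKM in the controls. FTbR2KO 2 stood highest of all libraries for each of these 3 genes.

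The kinase and cyclin genes that drive entry into mitosis followed the same order. Cdk1, the mitotic kinase, measured 1.55, 2.97, 1.85 and 2.55 FPKM in FTbR2KO 1 to 4 and 1.46, 2.60, 1.31 and 2.85 FPKM in the controls. Ccnb1, its cyclin partner, measured 0.765, 2.91, 0.636 and 1.49 FPKM in FTbR2KO 1 to 4 and 0.654, 1.79, 0.568 and 1.92 FPKM in the controls. FTbR2KO 2 was again highest for both, and the genotypes overlapped. Aurka, the centrosome kinase, measured 0.979, 1.84, 0.780 and 1.30 FPKM against 0.740, 1.12, 0.541 and 1.62 FPKM in the controls. Birc5, the survivin subunit of the chromosomal passenger complex, measured 0.643, 1.73, 1.25 and 1.84 FPKM against 0.721, 1.62, 0.776 and 1.68 FPKM. For Birc5 the highest library was FTbR2KO 4, and FTbR2KO 3 lay well above FTbR2KO 1.

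The remaining regulators of mitosis had the order as well. Foxm1, a transcription factor of the mitotic wave, was 1.43 to 2.96 FPKM and had nearly equal means, with a log2 fold change of -0.0017 (SE 0.22). Ccna2, the cyclin that spans S phase and G2, was 1.33 to 3.85 FPKM, and the polo-like kinase gene Plk1 was 1.15 to 3.86 FPKM. Cdc20, an activator of the anaphase-promoting complex, was 2.81 to 7.94 FPKM and Ccnb2 2.94 to 8.40 FPKM, the highest levels of the mitotic members. Of the spindle genes, the motor gene Kif11 measured 0.669, 2.96, 0.893 and 1.79 FPKM in FTbR2KO 1 to 4 and 0.671, 1.81, 0.598 and 1.75 FPKM in the controls. Nusap1, a microtubule-binding protein, was 0.421 to 1.80 FPKM and Tpx2 1.31 to 4.27 FPKM.

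**Figure D1:**
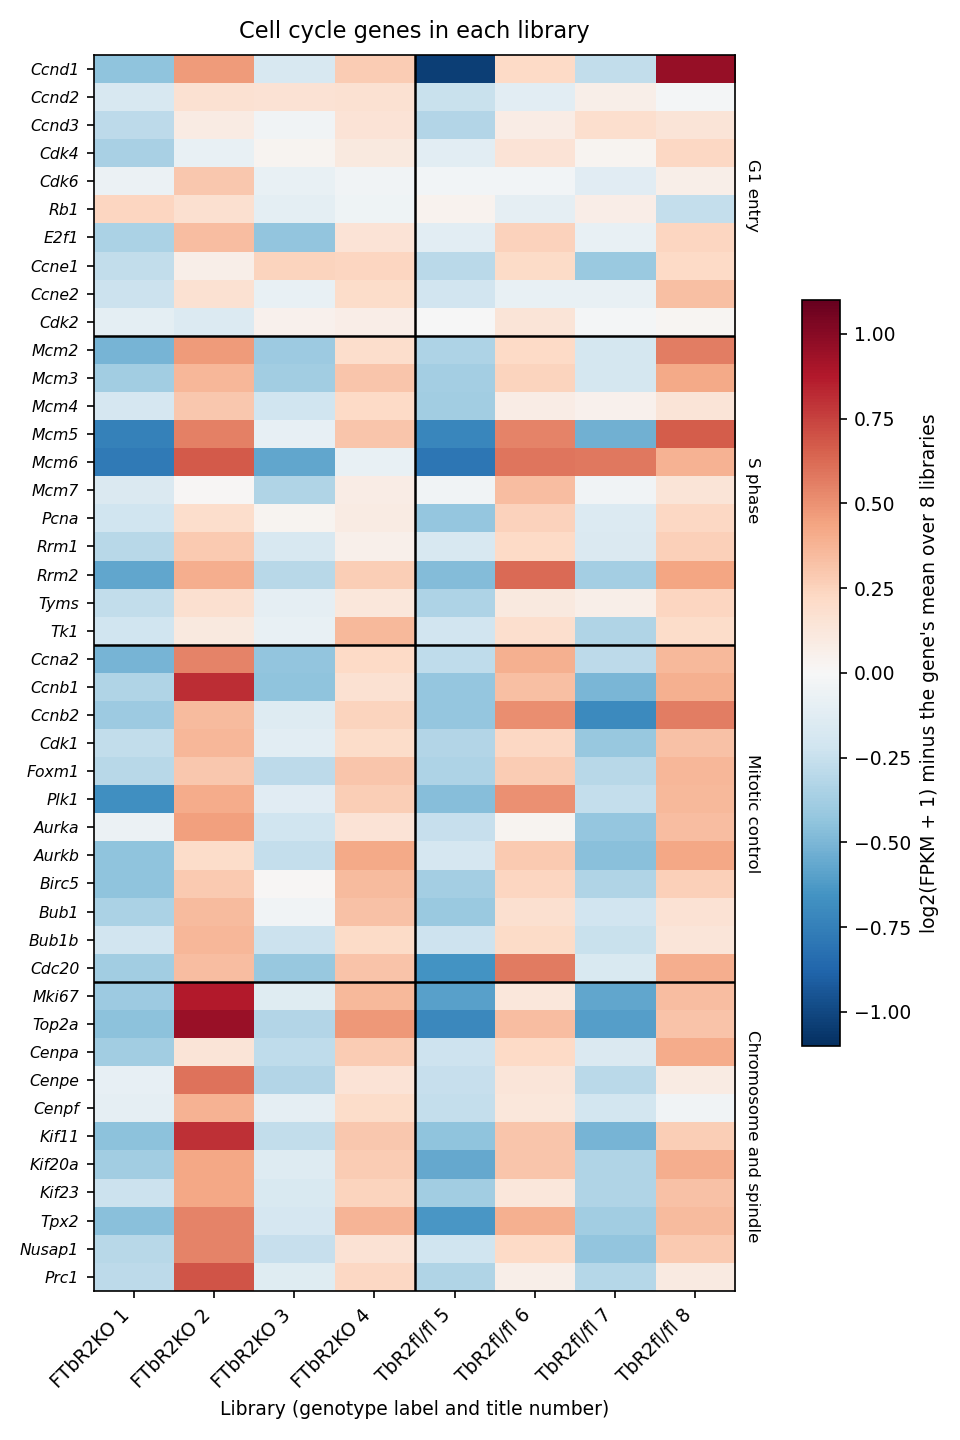
Heat map of the 44 members in rows, grouped by role, and the 8 libraries in columns, coloured by log2(FPKM + 1) minus the gene's mean over the 8 libraries. FTbR2KO 2 and 4 and TbR2fl/fl 6 and 8 are above the mean (red) for most S phase and mitotic genes, and 22 of 44 members are highest in FTbR2KO 2. Of 11667 tested genes, 1759 are highest in that library.

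All 23 mitotic members had this order: FTbR2KO 2 and 4 both lay above FTbR2KO 1 and 3, and TbR2fl/fl 6 and 8 both above TbR2fl/fl 5 and 7. The order was noticed in the members' own values, so its count is a description. Over the 11667 genes that passed the expression filter (at least 1 FPKM in at least 4 of the 8 libraries), 4.66% had both orders, 15.4% had the first alone or with the second, and 27.3% the second. Of the tested genes in the level range of the mitotic members, 4.43% had both. The ratio of the highest to the lowest library within the FTbR2KO label ran from 1.85 for Ccnb2, a B-type cyclin, to 4.57 for Ccnb1. Within the controls it ran from 1.61 for the spindle checkpoint kinase gene Bub1b to 3.40 for Aurkb, the kinase of the passenger complex. FTbR2KO 2 was the highest library for 16 of the 23, among them the motor genes Kif11, Kif20a and Kif23 and the spindle assembly factor gene Tpx2. TbR2fl/fl 5 was lowest for 10 and TbR2fl/fl 7 for 8. Of the 11667 tested genes, FTbR2KO 2 was highest for 1759, TbR2fl/fl 5 lowest for 2340 and TbR2fl/fl 7 lowest for 980.

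S phase genes followed with smaller spreads. Mcm2, a subunit of the replicative helicase, measured 0.985, 2.90, 1.14 and 2.23 FPKM in FTbR2KO 1 to 4 and 1.23, 2.29, 1.48 and 3.18 FPKM in the controls. Rrm2, the regulated subunit of ribonucleotide reductase, which makes deoxynucleotides, measured 1.75, 4.36, 2.30 and 3.90 FPKM against 1.93, 5.29, 2.15 and 4.49 FPKM in the controls. Both showed FTbR2KO 2 and 4 and controls 6 and 8 high. Pcna, the sliding clamp of DNA polymerases, measured 17.7, 24.0, 21.3 and 22.2 FPKM against 15.3, 24.9, 18.7 and 24.6 FPKM, the same order over a narrower range. Tk1, the thymidine kinase, measured 1.23, 1.80, 1.46 and 2.32 FPKM against 1.25, 1.95, 1.06 and 1.99 FPKM and was highest in FTbR2KO 4.

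Of the 11 S phase members, 10 had the order in both genotypes. The exception was Mcm6, another helicase subunit, with 1.98, 7.10, 2.42 and 3.81 FPKM in FTbR2KO 1 to 4 and 1.93, 6.64, 6.61 and 5.65 FPKM in TbR2fl/fl 5 to 8. TbR2fl/fl 7, which lay below TbR2fl/fl 6 and 8 for the other 10 S phase members, was among its highest libraries. The helicase subunits, which work as a single hexamer, differed in spread: the highest-to-lowest ratio within the FTbR2KO label was 3.84 for Mcm5 and 3.60 for Mcm6 but 1.52 for Mcm4 and 1.43 for Mcm7. Mcm7 measured 3.80, 4.41, 3.27 and 4.69 FPKM against 4.22, 5.77, 4.22 and 4.91 FPKM in the controls. It hosts annotated microRNA genes and overlaps other genes on the opposite strand, so its counting is uncertain. For Rrm1, the large reductase subunit, and Tyms, the thymidylate synthase gene, the same ratio was 1.67 and 1.51.

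**Figure D2:**
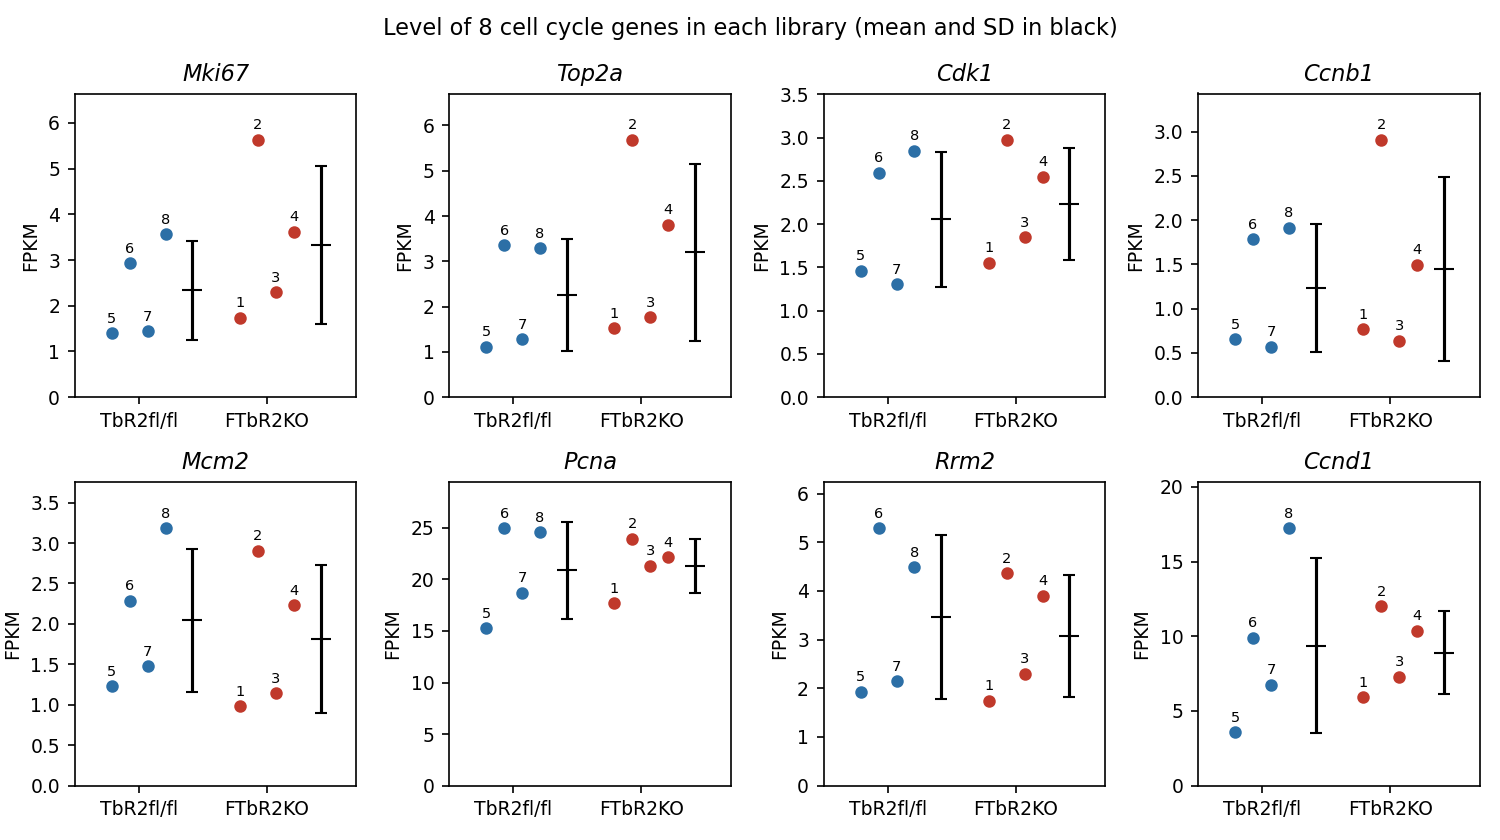
FPKM of 8 members in each library, with the title number beside each point and the mean and SD (n = 4 per genotype) in black. Libraries 2, 4, 6 and 8 lie above 1, 3, 5 and 7 within their genotype in every panel, and the genotypes overlap.

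Setting the S phase genes beside the mitotic genes, both were high in the same 4 libraries. The mean log2(FPKM + 1) level of the S phase members was 1.94, 2.65, 2.10 and 2.51 in FTbR2KO 1 to 4 and 1.95, 2.64, 2.22 and 2.67 in TbR2fl/fl 5 to 8. The mean level of the mitotic members on the same scale was 1.09, 1.92, 1.22 and 1.71 in FTbR2KO 1 to 4 and 1.05, 1.70, 1.07 and 1.74 in the controls. The order of the libraries was not identical: FTbR2KO 2 stood clear of all others for the mitotic genes but level with TbR2fl/fl 6 and 8 for the S phase genes. TbR2fl/fl 7 lay above FTbR2KO 3 in the S phase mean and below it in the mitotic mean. The S phase gap came largely from Mcm6, at 6.61 FPKM in TbR2fl/fl 7 and 2.42 FPKM in FTbR2KO 3. Mcm5, Pcna, Rrm2 and Tk1 were lower in TbR2fl/fl 7, and the remaining S phase members were higher in it. The median SD within genotypes on the log2 scale was 0.42 for the 20 tested mitotic members, 0.26 for the 11 S phase members and 0.16 for all tested genes.

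**Figure D3:**
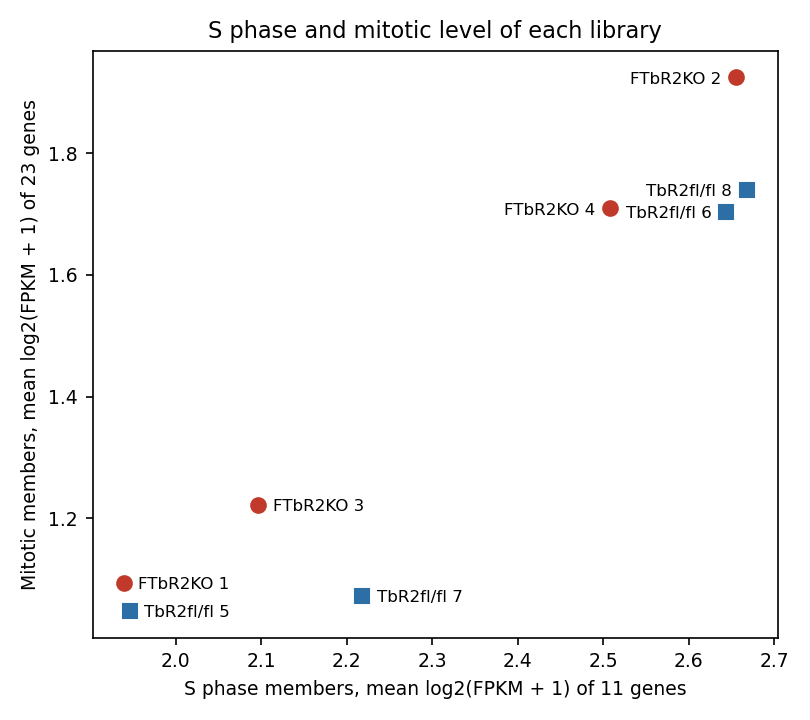
Mean log2(FPKM + 1) of the 11 S phase members (horizontal) and the 23 mitotic members (vertical) in each library, circles for FTbR2KO and squares for TbR2fl/fl. Of each genotype 2 libraries lie at the upper right and 2 at the lower left, and FTbR2KO 2 has the highest mitotic level (1.92).

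Most genes of G1 entry varied less, with a median SD within genotypes of 0.18 on the log2 scale over the 9 tested. Cdk4 measured 22.5, 27.5, 29.7 and 31.4 FPKM in FTbR2KO 1 to 4 and 26.8, 32.4, 29.7 and 34.3 FPKM in the controls. It overlaps Tspan31 on the opposite strand, and Rb1 and Ccnd2 also overlap other genes there. Rb1, which encodes the retinoblastoma protein, measured 4.57, 4.34, 3.38 and 3.59 FPKM against 3.87, 3.42, 3.96 and 2.94 FPKM, with the lowest value in TbR2fl/fl 8, a library high for mitotic genes. Ccnd2 measured 7.03, 9.24, 9.19 and 9.21 FPKM in FTbR2KO 1 to 4 and 6.69, 7.39, 8.49 and 7.96 FPKM in the controls. In each of these the genotypes overlapped, and FTbR2KO 1 was the lowest library of its label for Cdk4 and Ccnd2 and the highest for Rb1.

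Ccnd1, the D-type cyclin most closely tied to mitogen signals, differed from the other D-type cyclins. It measured 5.92, 12.0, 7.31 and 10.4 FPKM in FTbR2KO 1 to 4 and 3.58, 9.91, 6.77 and 17.2 FPKM in the controls. Its ratio of highest to lowest control was 4.81, where Ccnd2 had 1.27 and Ccnd3 1.48. Ccnd1 and E2f1, the founding E2F activator, were the only members of the G1 entry group that had the order of the mitotic genes in both genotypes, 2 of 10. The mean log2(FPKM + 1) level of the 10 did follow the order. It was 2.30, 2.66, 2.46 and 2.63 in FTbR2KO 1 to 4 and 2.28, 2.58, 2.44 and 2.70 in the controls. The E cyclin gene Ccne1 was 0.441 to 1.25 FPKM and Ccne2 0.626 to 1.42 FPKM, and the kinase genes Cdk2 and Cdk6 stayed within 2.56 to 3.36 FPKM and 3.46 to 4.99 FPKM.

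Promoter sequences are shown because the mitotic and S phase members varied together, and because these groups are known to differ in promoter elements. RefSeq promoter windows (build GRCm38.p6, 250 bases before to 50 after the start) were found for 34 of the 44 members in 37 windows. Searched on both strands was TTTGAA, the core of the cell cycle homology region (CHR) that MuvB binds. Also searched were the box bound by NF-Y, with the letters CCAAT, and the E2F letters TTTCCCGC, TTTGGCGC, TTTGCCGC and TTTCGCGC. Some E2F matches overlap each other on opposite strands. TTTGAA was in 14 of 19 windows of mitotic members (73.7%), 1 of 11 windows of S phase members and 0 of 7 windows of G1 entry members. The share over all 32851 windows was 17.9%. CCAAT was in 17 of 19 mitotic windows and 9 of 11 S phase windows, against 37.4% of all windows. E2F letters were in 4 of 11 S phase windows and 1 of 19 mitotic windows, against 2.27% of all windows. A match is a description of the letters, not a shown binding site.

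Below are the 250 bases before the RefSeq start of 3 mitotic and 2 S phase members, 5′ to 3′ on the strand of the gene, with CHR, CCAAT and E2F letters in capitals. A match on the opposite strand reads as its reverse complement. Mki67 lies at chr7:135716380-135716629 (minus strand), Top2a at chr11:99024190-99024439 (minus), Cdk1 at chr10:69352913-69353162 (minus), Mcm2 at chr6:88898781-88899030 (minus) and Rrm2 at chr12:24708004-24708253 (plus).
Mki67: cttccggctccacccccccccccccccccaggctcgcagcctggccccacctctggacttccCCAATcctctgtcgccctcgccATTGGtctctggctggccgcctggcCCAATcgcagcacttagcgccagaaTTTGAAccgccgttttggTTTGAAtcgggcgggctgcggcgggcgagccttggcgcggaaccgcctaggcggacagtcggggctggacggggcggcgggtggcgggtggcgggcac
Top2a: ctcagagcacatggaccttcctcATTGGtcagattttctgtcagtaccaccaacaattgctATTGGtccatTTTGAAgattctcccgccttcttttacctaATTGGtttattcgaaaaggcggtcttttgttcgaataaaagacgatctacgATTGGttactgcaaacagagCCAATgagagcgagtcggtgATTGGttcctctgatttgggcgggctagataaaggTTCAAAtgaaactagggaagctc
Cdk1: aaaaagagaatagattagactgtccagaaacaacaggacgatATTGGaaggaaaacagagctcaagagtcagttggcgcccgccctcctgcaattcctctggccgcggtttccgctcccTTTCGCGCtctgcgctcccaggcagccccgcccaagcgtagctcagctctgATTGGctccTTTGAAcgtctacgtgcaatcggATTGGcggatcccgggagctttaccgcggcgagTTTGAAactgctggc
Mcm2: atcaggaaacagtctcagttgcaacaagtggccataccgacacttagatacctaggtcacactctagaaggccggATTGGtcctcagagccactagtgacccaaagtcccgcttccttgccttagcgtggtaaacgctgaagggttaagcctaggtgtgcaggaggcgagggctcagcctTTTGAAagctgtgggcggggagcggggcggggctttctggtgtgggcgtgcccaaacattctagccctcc
Rrm2: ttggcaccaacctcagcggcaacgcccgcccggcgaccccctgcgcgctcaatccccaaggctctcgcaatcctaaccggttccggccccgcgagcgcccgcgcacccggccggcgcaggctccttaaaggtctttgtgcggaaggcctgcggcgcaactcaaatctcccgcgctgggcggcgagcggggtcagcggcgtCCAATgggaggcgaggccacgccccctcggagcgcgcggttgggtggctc
In Cdk1, TTTGAA stood at -71 to -66 and again at -15 to -10 (the start is position 0), with 3 CCAAT boxes and the E2F letters TTTCGCGC at -131 to -124. In Top2a, TTTGAA stood at -179 to -174 and, on the opposite strand, at -23 to -18, with 6 CCAAT boxes spread over the window. Mki67 held TTTGAA at -116 to -111 and -98 to -93 downstream of 3 CCAAT boxes. Mcm2 was the S phase member with TTTGAA, at -70 to -65, and Rrm2 held a single CCAAT box at -50 to -46.

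The genotype comparison asks whether losing TbR2 changes the transcriptome of infarct fibroblasts, here whether it changes the genes of the cell cycle. No member passed the threshold. Genes past the filter were tested with limma on log2(FPKM + 1), with Benjamini-Hochberg adjustment over all 11667 tested genes and a two-sided threshold of 0.05. Of the 44 members, 40 were tested and 0 were called, where 2 of all tested genes (0.0171%) were called, both higher under the FTbR2KO label. At an unadjusted p under 0.05 there were 0 members, where 8.61% of all tested genes fell. The adjusted p of the members ran from 0.646 (Mcm7) to 0.998 (Foxm1). The groups did not overlap for 0 of the 44 members and for 4.41% of all tested genes. Genotype held a median of 2.14% of the variance of the tested mitotic members and 1.59% for the S phase members, where the median over all tested genes was 11.3%. The ratio of genotype means of the 23 mitotic members ran from 0.881 for Cenpa, the centromeric histone, to 1.50 for Cenpf, a kinetochore protein.

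Point estimates differed a little between the roles, within errors that included 0. The median log2 fold change, FTbR2KO minus TbR2fl/fl, was 0.09 for the 20 tested mitotic members, 14 of them above 0, and -0.045 for the 11 S phase members, 4 of them above 0. For all tested genes it was -0.0045, with 48.8% above 0. Array weights, a minimum of 5 FPKM, or leaving out FTbR2KO 2, TbR2fl/fl 5 or TbR2fl/fl 7 each put the mitotic median below 0 (-0.049 to -0.012). Leaving out FTbR2KO 1, TbR2fl/fl 6 or TbR2fl/fl 8, a minimum of 5 FPKM, TPM or a macrophage covariate put the S phase median above 0 (0.000215 to 0.10). The minimum of 5 FPKM left only Ccnb2 and Cdc20 of the mitotic members and Mcm3, Mcm4, Mcm6 and Pcna of the S phase members. Its medians therefore changed sign through the set of genes. With TPM the median of all tested genes was 0.15, above the S phase median. Without FTbR2KO 1 and TbR2fl/fl 5 together the mitotic and S phase medians were 0.11 and -0.058, and without the 2 libraries with Ddx3y they were 0.10 and -0.025.

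Mki67 averaged 3.32 ± 1.73 FPKM in the libraries labelled FTbR2KO and 2.33 ± 1.09 FPKM in the controls (SD, n = 4 each). The difference was 0.35 on the log2 scale (SE 0.30, 95% confidence interval -0.33 to 1.03, limma adjusted p = 0.754). Top2a averaged 3.20 ± 1.95 against 2.26 ± 1.23 FPKM, with a log2 fold change of 0.33 (interval -0.48 to 1.14, limma adjusted p = 0.803). These were the highest fold changes of any tested member, and FTbR2KO 2 was the highest library for both. Cdk1 differed by 0.095 on the log2 scale (interval -0.36 to 0.55) and Ccnb1 by 0.10 (interval -0.60 to 0.80). In the deposited table (GRCm38) Mki67 spans chr7:135689784-135716361, Top2a chr11:98992943-99024189, Cdk1 chr10:69335146-69352938 and Ccnb1 chr13:100778650-100786570, all on the minus strand.

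Among S phase genes the lowest estimate was that of Mcm6, at 3.83 ± 2.32 against 5.20 ± 2.23 FPKM and a log2 fold change of -0.38 (interval -1.23 to 0.47, limma adjusted p = 0.784). Mcm7 had -0.20 (SE 0.12, interval -0.46 to 0.07), the smallest limma adjusted p of the members. Pcna had 0.046 (interval -0.32 to 0.41), Mcm2 -0.13 (interval -0.71 to 0.46) and Rrm2 -0.10 (interval -0.77 to 0.56). Of the G1 entry genes, Ccnd2 had 0.16 (interval -0.07 to 0.40), Cdk4 -0.15 (interval -0.42 to 0.12), Rb1 0.13 (interval -0.12 to 0.37) and Ccnd1 0.07 (interval -0.79 to 0.93). The intervals of Ccnd2, Cdk4 and Rb1 were the narrower ones, as were their spreads between libraries. Mcm2 spans chr6:88883474-88898780, Pcna chr2:132249162-132253314 and Ccnd1 chr7:144929931-144939925 on the minus strand, and Rrm2 chr12:24708241-24714146 on the plus strand.

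**Figure D4:**
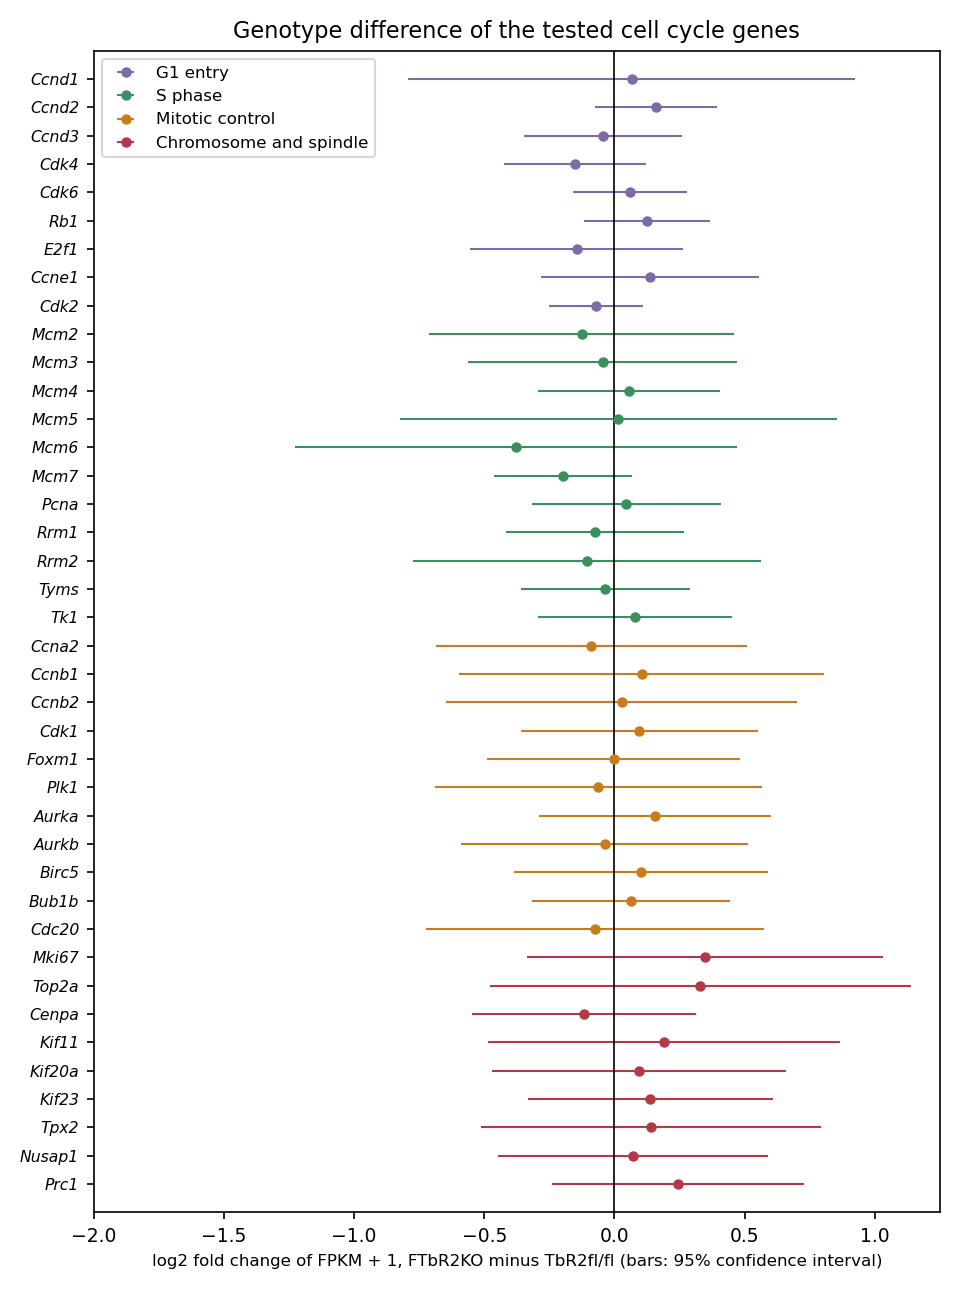
Log2 fold change of FPKM + 1, FTbR2KO minus TbR2fl/fl, for the 40 tested members, coloured by role, with 95% confidence intervals from limma. Every interval includes 0, from Mcm6 at -0.38 to Mki67 at 0.35.

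The 4 members below the expression filter were Bub1, a spindle checkpoint kinase gene, the kinetochore genes Cenpe and Cenpf, and Ccne2. Bub1 measured 0.370, 1.22, 0.697 and 1.19 FPKM in FTbR2KO 1 to 4 and 0.313, 0.967, 0.505 and 0.952 FPKM in the controls. Cenpf measured 0.399, 0.958, 0.403 and 0.723 FPKM against 0.252, 0.633, 0.307 and 0.460 FPKM. Both had the order of the other mitotic genes. The exact two-sided permutation p of FPKM, unadjusted, was 0.486 for Bub1, 0.486 for Cenpe, 0.229 for Cenpf and 0.971 for Ccne2, where 4 against 4 libraries allow no p below 0.0286.

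Other genes of the same pathways were taken from lists of known components, and 0 of their tested genes passed the threshold in limma. An unadjusted p under 0.05, which 8.61% of all tested genes had, was found for 1 of 24 tested replication genes, 1 of 9 CDK inhibitors and pocket proteins and 2 of 14 anaphase-promoting complex genes. It was found for 0 of 26 mitotic and 0 of 10 E2F and DREAM genes. In the list of 50 further mitotic genes, 45 had the order in both genotypes, where 4.66% of all tested genes had it. These genes were measured in the same libraries as the members, so their count is a description and not an independent repeat. Of the 50, 26 were tested and 0 passed the threshold, with 19 above 0 and 7 below. Nuf2, of the kinetochore complex that holds microtubules, had a log2 fold change of 0.26 (SE 0.20). Smc4, a condensin subunit, had 0.12 (SE 0.099) and Ckap2l, a spindle protein, 0.30 (SE 0.27). Of 37 further replication genes 24 were tested and 0 passed, with 11 above 0 and 13 below, and 19 of the 37 had the order. Uhrf1, which keeps DNA methylation through replication, measured 1.07, 4.13, 1.98 and 3.66 FPKM in FTbR2KO 1 to 4 and 1.12, 3.64, 1.40 and 4.31 FPKM in the controls. It was chosen as an example after its values were seen.

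A few replication and anaphase genes were lower under the FTbR2KO label without passing the threshold. Gins4, of the complex that joins the replicative helicase, measured 11.2, 13.7, 15.3 and 15.9 FPKM in FTbR2KO 1 to 4 and 18.9, 20.3, 18.3 and 17.5 FPKM in the controls, so all 4 lay below all controls (log2 fold change -0.40, SE 0.11, limma adjusted p = 0.571). Non-overlapping groups, which 4.41% of all tested genes had, were also found for Pola2 and Orc6, 3 of the 24 tested replication genes in all. Pola2, a subunit of DNA polymerase α, had -0.29 (SE 0.13), the origin recognition gene Orc6 -0.11 and Rfc3, of the clamp loader, -0.23 (SE 0.12). Of the 14 genes of the anaphase-promoting complex list, all tested, 0 passed, with 4 above 0 and 10 below. The groups did not overlap for 2 of the 14, Anapc13 (-0.22, SE 0.080) and Anapc7 (-0.17, SE 0.064), while Anapc1 had 0.13 (SE 0.075).

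Among inhibitors and transcriptional regulators of the cycle the order was held by fewer genes. Of 9 CDK inhibitors and pocket proteins, 1 had the order in both genotypes, and the summed level was 93.6 to 104.8 FPKM under the FTbR2KO label and 93.2 to 108.8 FPKM in the controls. Cdkn1a, which encodes p21, measured 25.9, 33.2, 35.1 and 32.3 FPKM in FTbR2KO 1 to 4 and 21.7, 28.7, 36.2 and 24.4 FPKM in the controls, and was highest in TbR2fl/fl 7. Cdkn2a, which encodes p16 and p19ARF, had a log2 fold change of -0.32 (SE 0.12, limma adjusted p = 0.571), and Rbl1, the pocket protein p107, 0.19 (SE 0.13). All 9 were tested and 0 passed. Of 15 E2F and DREAM genes 10 were tested and 0 passed, with 6 above 0, and 3 of the 15 had the order in both genotypes. The mean log2(FPKM + 1) level of the 15 did follow the order, at 1.81, 1.97, 1.85 and 1.89 in FTbR2KO 1 to 4 and 1.74, 1.89, 1.81 and 1.91 in the controls. Lin54, the MuvB subunit that reads the CHR, had 0.15 (SE 0.087), Lin52 0.13 (SE 0.083) and E2f6 0.076 (SE 0.079). Mybl2, which encodes B-Myb, was below the filter at 0.243 to 1.02 FPKM and was one of the 3, with the repressor gene E2f7 and the activator gene E2f3.

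Transcripts of other cell types, which may also cycle in an infarct, were set beside these values. The 12 macrophage and monocyte markers summed to 8.45 to 12.9 FPKM under the FTbR2KO label and 10.4 to 13.2 FPKM in the controls. Ptprc, the pan-leukocyte antigen, was at most 0.0346 FPKM, and Itgam was at 0 in 6 of 8 libraries. Others of the list were at levels like those of the mitotic members: the lysosomal gene Cd68 was 2.01 to 7.15 FPKM, the lysozyme gene Lyz2 2.45 to 5.60 FPKM and Cd14 0.780 to 2.14 FPKM. In the controls 7 of the 12 were higher in libraries 6 and 8 than in 5 and 7, where 27.3% of all tested genes were, and 1 of the 12, C1qa, had the order in both genotypes. C1qa, a complement gene of tissue macrophages, measured 0.388, 0.609, 0.146 and 0.716 FPKM in FTbR2KO 1 to 4 and 0.164, 1.29, 0.0940 and 0.844 FPKM in the controls, and C1qb 0.188, 1.20, 0.404 and 1.91 FPKM in the controls. The mean log2(FPKM + 1) level of the 12 was 0.61, 0.74, 0.71 and 0.56 in FTbR2KO 1 to 4 and 0.67, 0.81, 0.60 and 0.79 in the controls. It thus had the mitotic order in the controls and not under the FTbR2KO label. The same held for the mean levels of the mural, cardiomyocyte and erythroid markers. That of the mural markers was 2.75, 3.24, 3.25 and 2.82 in FTbR2KO 1 to 4 and 2.83, 2.90, 2.71 and 3.08 in the controls. Lymphocyte and endothelial markers had the order in neither group. For the sorted cells themselves, the mean level of the 9 fibroblast markers was 8.75, 8.57, 8.45 and 8.55 in FTbR2KO 1 to 4. In the controls it was 8.56, 8.46, 8.81 and 8.36, so libraries 6 and 8 lay below 5 and 7. The part of any of these markers in the order of the libraries was not tested. The 8 lymphocyte markers summed to 0.127 to 0.456 and 0.114 to 0.428 FPKM. Endothelial markers summed to 19.7 to 26.0 and 18.6 to 28.6 FPKM, of which Tek made up 15.1 to 26.8 FPKM, while each of the other 7 was at most 1.17 FPKM. Mural cell markers summed to 52.7 to 93.0 and 57.0 to 81.3 FPKM. Few macrophage, lymphocyte and endothelial markers passed the expression filter (3 of 12, 0 of 8 and 1 of 8), so the genotype test says little on them. The 7 mural markers were all tested and 0 passed the threshold, with 6 above 0, 1 below and a median log2 fold change of 0.11. Cardiomyocyte markers summed to 2.57 to 5.25 and 4.04 to 5.45 FPKM. The erythroid markers stood out in 1 library, TbR2fl/fl 6, at 43.6 FPKM where the others had 3.56 to 11.2 FPKM.

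Other measures of the libraries can be set beside the mitotic level. Depth was 16.1, 17.7, 19.6 and 22.9 M reads in FTbR2KO 1 to 4 and 27.7, 28.6, 21.2 and 28.7 M in TbR2fl/fl 5 to 8. Among the controls the 2 libraries high for mitotic genes were thus the deepest, whereas FTbR2KO 2, highest for mitotic genes, had fewer reads than FTbR2KO 3. Ddx3y was at 0 in FTbR2KO 2 and TbR2fl/fl 6 and high in FTbR2KO 4 and TbR2fl/fl 8, and these 4 libraries were all high for mitotic genes. The 4 libraries low for mitotic genes had at most 0.0470 FPKM of Ddx3y. Pdgfra was 85.6, 63.7, 57.1 and 57.1 FPKM in FTbR2KO 1 to 4 and 71.1, 49.2, 64.4 and 45.5 FPKM in TbR2fl/fl 5 to 8, lower in the controls that were high for mitotic genes. The part of these measures in the differences between libraries was not tested, and no batch is given in the sources used here.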

How the data were processed

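Gene-level FPKM of 8 libraries were used as deposited by the authors, with gene names, lengths and GRCm38 positions per the file headers. Listed in the submitters' processing notes, without their roles, are HTSeq 0.6.1, Cufflinks 2.1.1, TopHat2 2.0 and CASAVA, and GRCm38.p6 and mm10 as builds. Use of strand in counting is not stated, so overlapping genes cannot be told apart. Members overlapping another annotated gene on the opposite strand were Ccnd1, Ccnd2, Ccnd3, Cdk4, Cdk6, Rb1, Ccne2, Cdk2, Mcm7, Tk1, Ccna2, Plk1, Cdc20, Kif20a, Nusap1 and Prc1. On the same strand they were Mcm7, Foxm1 and Top2a. Reads per gene were recovered from FPKM times length, which fell on whole steps for 100% of nonzero values (tolerance 0.01). Genes reaching 1 FPKM in 4 or more of the 8 libraries were tested on log2(FPKM + 1), a scale that understates the change of low genes, with limma 3.58.1 in R 4.3.3 (trended empirical Bayes, no covariate, Benjamini-Hochberg adjustment over all tested genes). The fit was tested on simulated reads.

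The members, the role groups and the pathway and marker lists were chosen with earlier results of these data known. Values in every library are given for Mki67, Top2a, Cdk1, Ccnb1, Mcm2, Pcna, Rrm2, Ccnd1, Cdk4 and Rb1 and for the 3 members with the smallest p in each role group, and the 3 genes with the smallest p were named from each pathway list. The printed promoter sequences were limited to those with at most 30 bases inside the deposited gene model, whereas the motif counts used all windows found. Alternatives were another pseudocount, other filters, scalings, tests and covariates, and left-out libraries.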

Additional observations from a re-analysis of the deposited data

Results flagged for a closer look

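In 3 of the 88 sets of 4 libraries examined (44 members in 2 genotypes), a single library lay far from the other 3 on the log2 scale by Dixon's test. Chance flags about 1 in 20 such sets. Ccnd2 measured 7.03 FPKM in FTbR2KO 1 and 9.19 to 9.24 FPKM in FTbR2KO 2 to 4. Cdk6 measured 4.99 FPKM in FTbR2KO 2 and 3.61 to 3.74 FPKM in the other libraries of that label. Mcm6 measured 1.93 FPKM in TbR2fl/fl 5 and 5.65 to 6.64 FPKM in the other controls.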

How the results depend on the processing

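Under 20 alternatives, 2 of them added after the data were seen (sex read from Ddx3y as a covariate, and leaving out FTbR2KO 4 and TbR2fl/fl 8), 0 of 729 member values passed the threshold. The smallest limma adjusted p was 0.219, for Mcm7 with array weights. A change of sign occurred in 105 of the 729, by less than 1 SE in 101 of them, and 13 members kept their sign throughout. Dropping the filter or adding the sex covariate leaves each member's fold change as it was, so these values could not change sign. The median of the S phase members ran from -0.18 to 0.10 and that of the mitotic members from -0.049 to 0.27. Conversion to TPM moved the median of all tested genes to 0.15, so its mitotic median of 0.27 and its S phase median of 0.10 include that shift. The count of genes past the threshold, 2, was 1 with a minimum of 5 FPKM and 0 without FTbR2KO 1 and TbR2fl/fl 5 together. Leaving out 1 library at a time it ran from 1 (without FTbR2KO 1, 2 or 3) to 6 (without FTbR2KO 4). No paired analysis was possible because the titles number the groups 1 to 4 and 5 to 8 and share no number. The sample codes in the titles lie close together for FTbR2KO 1 and TbR2fl/fl 5 and for FTbR2KO 4 and TbR2fl/fl 8, but what the codes stand for is not stated. Precision is lowest for the members with fewest reads, such as Ccne1 with 465 over the 8 libraries.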

Other observations

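A small number of mitotic genes did not share the order of libraries seen in the members. Of 50 further mitotic genes, 5 departed from it: Pttg1, Cdc25b, Cks1b, Kif14 and Ccnf, named after their values were seen. Pttg1, which encodes securin, the inhibitor of separase, measured 8.38, 6.65, 5.39 and 6.08 FPKM in FTbR2KO 1 to 4 and 6.23, 5.77, 7.26 and 6.04 FPKM in TbR2fl/fl 5 to 8. It was highest in FTbR2KO 1, a library low for nearly all other mitotic genes. Cdc25b, a phosphatase that activates mitotic kinases, measured 4.42, 3.27, 2.36 and 3.70 FPKM against 4.55, 3.56, 2.98 and 4.02 FPKM and was highest in TbR2fl/fl 5. Cks1b, a small partner of cyclin-dependent kinases, measured 7.26, 11.1, 12.6 and 11.2 FPKM against 8.29, 13.5, 9.24 and 12.6 FPKM.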
